A study of Mus musculus with 7 samples.

Results

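The Cyp4 genes encode cytochrome P450 enzymes that add a hydroxyl group to the far end of fatty acids. The members were 10 genes given by symbol, Cyp4a10, Cyp4a14, Cyp4a31, Cyp4a32, Cyp4a12a, Cyp4a12b, Cyp4f13, Cyp4f14, Cyp4f15 and Cyp4v3, among 14889 genes in the deposited count table. All 10 were present and all 10 passed the count filter, which left 13693 genes for testing. Liver RNA was sequenced from 3 mice given PX-478 at 40 mg/kg and 4 mice given saline, by intraperitoneal injection on a bi-weekly schedule. PX-478, an N-oxide of the alkylating drug melphalan, lowers HIF-1α, a transcription factor that responds to low oxygen. Mice of both groups were of the C57BL/6 strain, lacked apolipoprotein E (ApoE-/-), had eaten a Western diet for 3 months and were 4 months old by their labels. There was no group of mice with intact Apoe or on a normal diet.

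Omega-hydroxylation by these enzymes starts a side route of fatty acid breakdown. The product is oxidised further to a dicarboxylic acid, which is shortened in peroxisomes. In mouse liver Cyp4a10 and Cyp4a14 are classic targets of PPARα, the nuclear receptor activated by fatty acids and fibrates. Cyp4a12a is the male-predominant arachidonic acid hydroxylase of mouse liver and kidney and depends on androgen and growth hormone. Enzymes of the Cyp4f branch act on leukotriene B4 and on the side chains of vitamins E and K. Cyp4v3 is the mouse counterpart of human CYP4V2, whose loss causes a crystalline retinal dystrophy.

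The 6 Cyp4a genes lie together on chromosome 4 and some are close copies, so the sequence that separates the copies is shown first. In mm10, by the GENCODE annotation, Cyp4a12a (Entrez Gene 277753) spans 115299046 to 115332815 and Cyp4a12b (13118) spans 115411624 to 115439034. Their coding sequences differed at 23 of 1524 bases, an identity of 98.49%. The 120 coding bases that hold the most differences, bases 644 to 763 counted from the A of the start codon, are printed from the annotated transcripts, 5′ to 3′, with the differing bases in capitals.
Cyp4a12a: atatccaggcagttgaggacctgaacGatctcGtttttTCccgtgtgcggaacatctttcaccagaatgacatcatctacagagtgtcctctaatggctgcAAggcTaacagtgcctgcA
Cyp4a12b: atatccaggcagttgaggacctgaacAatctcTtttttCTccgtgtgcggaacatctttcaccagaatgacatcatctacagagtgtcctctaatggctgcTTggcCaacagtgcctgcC
Even this stretch held only 8 differing bases, and long runs between them were the same in both genes.

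Cyp4a10 (13117, bases 115518264 to 115533649), Cyp4a31 (666168, 115563649 to 115579015) and Cyp4a32 (100040843, 115600969 to 115621602) form the other set of copies. Their coding sequences, of 1527 bases each, differed at 77 positions, with pairwise identities of 96.59% for Cyp4a10 and Cyp4a31, 97.18% for Cyp4a10 and Cyp4a32 and 96.01% for Cyp4a31 and Cyp4a32. The stretch with the most differences, coding bases 160 to 279, held 15, again in capitals.
Cyp4a10: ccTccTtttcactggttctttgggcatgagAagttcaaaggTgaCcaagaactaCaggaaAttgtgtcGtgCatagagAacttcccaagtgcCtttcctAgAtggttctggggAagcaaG
Cyp4a31: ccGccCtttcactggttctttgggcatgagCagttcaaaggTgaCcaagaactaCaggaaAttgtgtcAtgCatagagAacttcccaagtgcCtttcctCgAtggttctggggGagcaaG
Cyp4a32: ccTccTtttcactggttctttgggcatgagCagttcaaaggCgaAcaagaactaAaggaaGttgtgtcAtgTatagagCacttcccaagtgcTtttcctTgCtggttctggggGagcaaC
Cyp4a14 (13119, 115486200 to 115496142), in the same cluster, was no such copy. Its coding sequence was 76.15% identical to that of Cyp4a10 and 75.74% to that of Cyp4a12a.

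How far reads could be mixed between genes was measured as the share of each gene's transcript stretches that also occur in a transcript of another gene. At 50 bases the share was 48.9% for Cyp4a12a and 49.4% for Cyp4a12b, in each case with the other of the pair. It was 43.8% for Cyp4a32, 29.8% for Cyp4a10 and 20.6% for Cyp4a31. At 100 bases these shares were 35.8%, 36.2%, 18.2%, 12.2% and 7.33%. Cyp4a14 shared 0.235% at 50 bases, and the 3 Cyp4f genes on chromosome 17 shared 1.11% to 2.39%. Cyp4v3 on chromosome 8 shared 7.02%, all of it with the annotated gene Gm45753. Counts of Cyp4a10, Cyp4a31, Cyp4a32, Cyp4a12a and Cyp4a12b are therefore uncertain as to the split between copies, since the read length and the treatment of multiply mapped reads are not given in the sources used here.

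**Figure D1:**
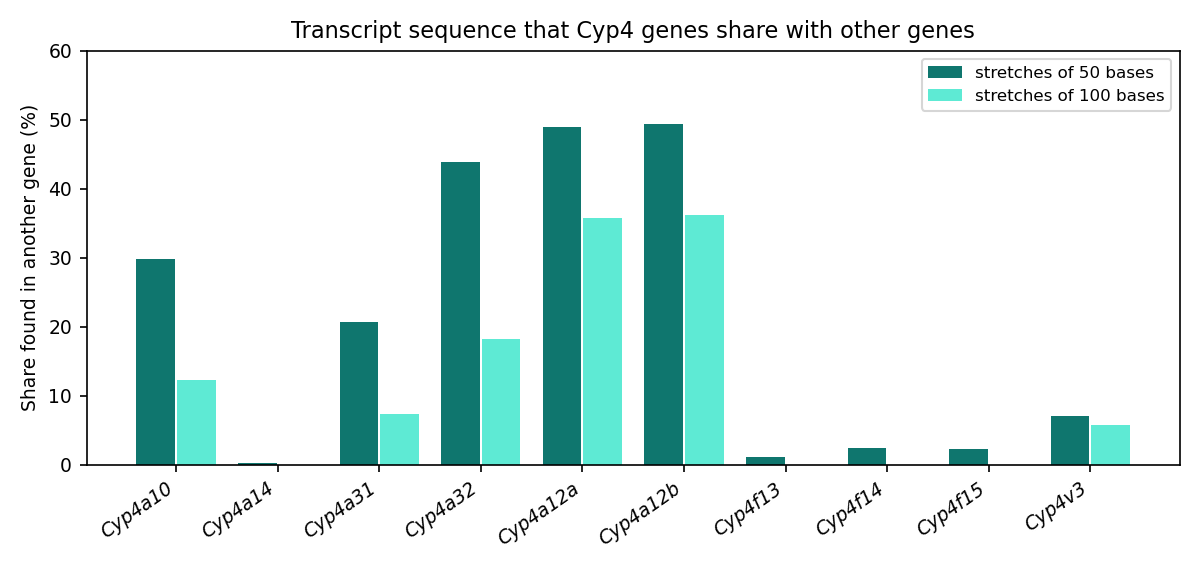
Share of the distinct stretches of 50 bases (dark bars) and 100 bases (light bars) of each gene's annotated transcripts that also occur in a transcript of another gene, in percent. The bars of Cyp4a12a and Cyp4a12b, at 48.9% and 49.4% for 50 bases, are the tallest, and those of Cyp4a14 and the Cyp4f genes lie at or below 2.39%.

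A RefSeq table of the GRCm38.p6 build held promoter sequence for 5 of the 10 members, Cyp4a32, Cyp4f13, Cyp4f14, Cyp4f15 and Cyp4v3, and none for Cyp4a10, Cyp4a14, Cyp4a31, Cyp4a12a and Cyp4a12b. The 3 Cyp4f promoters are shown because these genes lie in one cluster and together had the largest summed level of the family in every library. The 120 bases before the transcript start are printed 5′ to 3′ with ATTGG, the reverse of the CCAAT box, in capitals. Those of Cyp4f13 are chr17:32947362-32947481 on the minus strand, those of Cyp4f14, at the first start in the table, chr17:32917357-32917476 on the minus strand, and those of Cyp4f15 chr17:32685539-32685658 on the plus strand.
Cyp4f13: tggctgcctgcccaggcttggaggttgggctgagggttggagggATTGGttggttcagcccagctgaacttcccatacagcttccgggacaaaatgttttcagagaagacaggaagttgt
Cyp4f14: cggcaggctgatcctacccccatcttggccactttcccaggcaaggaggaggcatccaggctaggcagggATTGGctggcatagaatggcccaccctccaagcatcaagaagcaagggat
Cyp4f15: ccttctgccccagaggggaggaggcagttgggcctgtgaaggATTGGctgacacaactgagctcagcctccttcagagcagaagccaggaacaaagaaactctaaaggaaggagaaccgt
In the 250 bases before the start, each of these promoters and that of Cyp4a32 held ATTGG once, that of Cyp4v3 did not, and 33.8% of 32851 promoters hold it on either strand. AGGTCA, the half-site of PPARα and other nuclear receptors, was found on neither strand in any of the 5, and 14% of promoters hold it. A direct repeat of AGGTCA with 1 base between the copies was not found in the 5 either, and 0.0335% of promoters hold it. TATAAA was found once, on the minus strand of Cyp4a32, and 12.4% of promoters hold it. No match of ATTGG overlapped another motif searched.

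Libraries held 10285776 to 17257304 counted reads, and the Cyp4 members took 0.0977% to 0.161% of them. PX-478 2 and Saline 2 held the fewest, 10285776 and 10962670, against 13979721 to 17257304 in the other libraries. The part of this depth in the Cyp4 values was not tested. Levels are given as CPM, read counts scaled to a common library size, with each library's size adjusted by edgeR's TMM factor. The limit that 0 reads allow, 3 reads, lay at 0.188 to 0.260 CPM depending on the library and covers counting error only. PX-478 2 stood apart, with a TMM factor of 1.29 against 0.888 to 1.05 in the other libraries and with 22.4% of its reads from 15 mitochondrially encoded genes against 27.1% to 36.7%. The 8 hepatocyte markers were high in every library and summed to 34137 to 41960 CPM in PX-478 livers and 37573 to 53691 CPM in saline livers. Of these 8, 7 were lower in value in PX-478, with a median log2 difference of -0.34. None passed in edgeR, and 1 marker had an unadjusted p under 0.05 on the lower side, as had 3.48% of all genes. That marker, Ttr, the plasma carrier of thyroid hormone, lay at 2207 to 2581 CPM in PX-478 livers and 2968 to 4157 CPM in saline livers. Apoe, the deleted gene of all mice, was counted at 144 to 351 CPM in PX-478 livers and 130 to 284 CPM in saline livers. Reads outside the deleted part of a gene can still be counted, and with no library of intact mice this does not check the genotype. In liver tissue, fewer cells of a type and less RNA per cell cannot be told apart.

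The comparison asks which Cyp4 transcripts differ in level after PX-478. None of the 10 passed the test over all genes, edgeR's quasi-likelihood test with Benjamini-Hochberg adjustment at 0.05, and 1 gene of 13693, 0.0073%, did so. At an unadjusted p under 0.05 there were 2 members, Cyp4a31 on the higher side and Cyp4a12a on the lower side, where 3.48% of all genes lay on each side. By unadjusted p, DESeq2 counted 4 members, with 7.46% of all genes, and limma-voom 5, with 7.77%, and neither called any after adjustment. Over the 20 alternative settings this count ran from 1 to 5 members and was 1 in 6 of them: scaling by library size alone, the replicate block, and leaving out PX-478 1, Saline 1, Saline 3 or Saline 4. In the Cyp4a branch, the means of Cyp4a10, Cyp4a14, Cyp4a31 and Cyp4a32 were higher in PX-478 livers and those of Cyp4a12a and Cyp4a12b lower. Fold changes of the Cyp4f genes and Cyp4v3 were smaller, from -0.37 to 0.43 on the log2 scale.

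**Figure D2:**
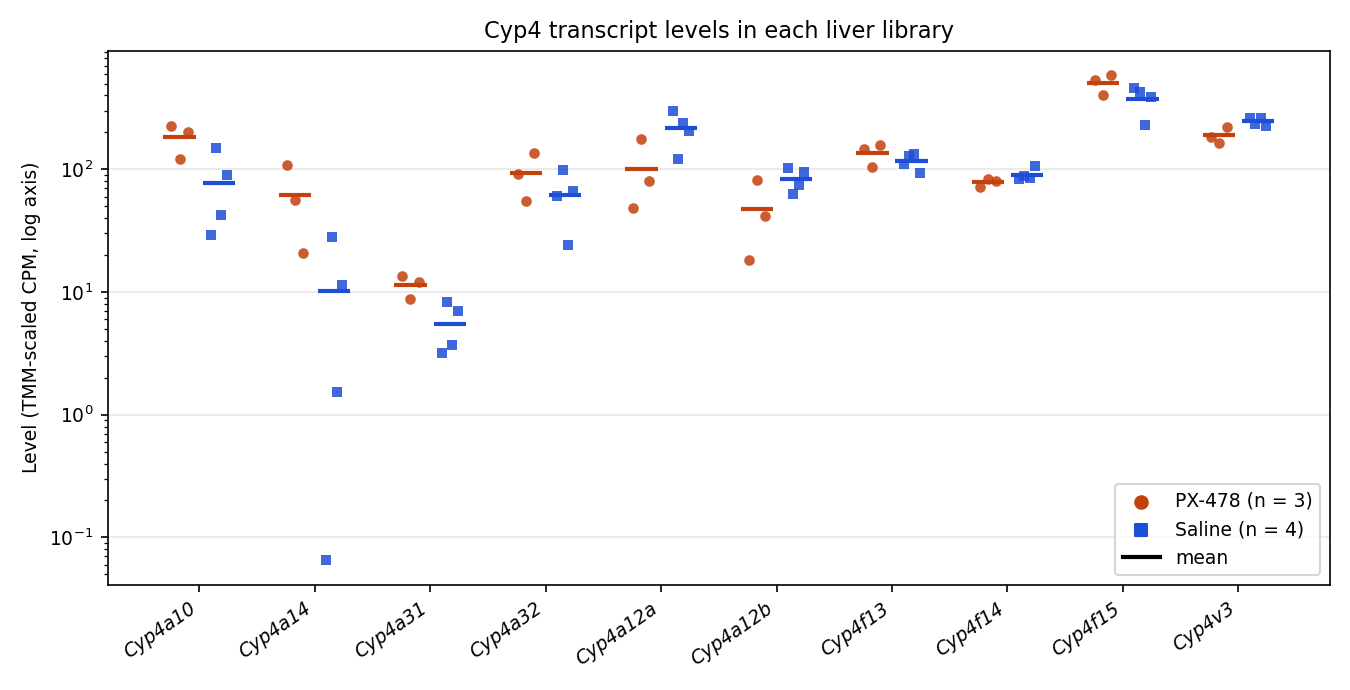
Level of each Cyp4 gene in each library, in TMM-scaled CPM on a log axis, with PX-478 libraries as circles, saline libraries as squares and group means as bars. Cyp4a14 spans the widest range, from 0.0651 CPM in Saline 1 to 108 CPM in PX-478 1, and Cyp4f14 one of the narrowest, from 71.5 to 106 CPM.

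Cyp4a14, a PPARα-inducible hydroxylase, had the largest fold change of the family and the largest spread. It stood at 108, 56.0 and 20.8 CPM in PX-478 1, 2 and 3, against 0.0651, 28.1, 1.52 and 11.4 CPM in Saline 1, 2, 3 and 4. The groups overlapped, since Saline 2 lay above PX-478 3. In reads the PX-478 libraries held 1554, 740 and 319, and the saline libraries 1, 324, 23 and 182. The 1 read of Saline 1 is a rounded mean of 2 count columns. Treated as a single count, it has a Poisson 95% interval of 0.00165 to 0.363 CPM. The means were 61.7 ± 44.0 CPM in PX-478 livers (SD, n = 3) and 10.3 ± 12.9 CPM in saline livers (SD, n = 4). The fitted log2 difference was 2.60, SE 1.42, with a 95% interval of -0.92 to 6.13 and an adjusted p of 0.773 in edgeR. Among saline livers the SD of its log2 CPM was 3.16, within the top percentile of all genes tested, and among PX-478 livers it was 1.19, at percentile 95.3.

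Cyp4a10, the other well-known PPARα target of the branch, stood at 225, 121 and 201 CPM in PX-478 1, 2 and 3, against 29.2, 150.4, 42.7 and 89.7 CPM in Saline 1, 2, 3 and 4. Saline 2 again lay inside the PX-478 range, above PX-478 2, while the other saline libraries lay below all PX-478 libraries. The means were 182 ± 54.1 CPM in PX-478 livers (SD, n = 3) and 78.0 ± 54.8 CPM in saline livers (SD, n = 4), 2.34-fold higher in PX-478. The log2 value of the fitted change was 1.23 (SE 0.54, 95% interval -0.02 to 2.47, adjusted p = 0.722).

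Cyp4a31 was the only Cyp4a gene whose groups did not overlap. It stood at 13.4, 8.77 and 12.1 CPM in PX-478 1, 2 and 3, against 3.19, 8.24, 3.70 and 7.02 CPM in Saline 1, 2, 3 and 4. PX-478 2 and Saline 2 were 8.77 and 8.24 CPM, so the gap between the groups was small. On the log2 scale the difference was 1.05 (SE 0.35), with a 95% interval of 0.30 to 1.81 and an adjusted p of 0.569 in edgeR. Of all genes tested, 4.3% had every PX-478 library above every saline library, and Cyp4a31 was 1 such member of 10.

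Cyp4a32 stood at 91.2, 55.3 and 136 CPM in PX-478 1, 2 and 3, against 60.04, 97.8, 24.1 and 66.0 CPM in Saline 1, 2, 3 and 4. The groups overlapped widely, and the log2 difference was 0.60 (SE 0.45, 95% interval -0.41 to 1.62, edgeR adjusted p = 0.826). It was 0.24 without PX-478 3, the library with the highest value. The ratio of Cyp4a32 to Cyp4a10 was 0.406 to 0.676 in PX-478 livers and 0.563 to 0.736 in Saline 2, 3 and 4, but 2.06 in Saline 1. The ratio of Cyp4a31 to Cyp4a10 was 0.0598 to 0.0722 in PX-478 livers and 0.0548 to 0.109 in saline livers. With the reads of Cyp4a10, Cyp4a31 and Cyp4a32 added into 1 row, the log2 difference was 0.98 (SE 0.42, edgeR adjusted p = 0.694).

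Cyp4a12a, the male-predominant hydroxylase, had the lower mean in PX-478 livers. It stood at 48.1, 175 and 80.4 CPM in PX-478 1, 2 and 3, against 298, 121, 237 and 204 CPM in Saline 1, 2, 3 and 4. PX-478 2 lay inside the saline range, above Saline 2, and PX-478 1 and 3 lay below all saline libraries. The means were 101 ± 66.0 CPM in PX-478 livers (SD, n = 3) and 215 ± 73.9 CPM in saline livers (SD, n = 4). The log2 difference was -1.09 (SE 0.44), with a 95% interval of -2.09 to -0.09 and an adjusted p of 0.686 in edgeR. It was -1.74 without PX-478 2 and did not pass there either.

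Its copy Cyp4a12b stood at 18.4, 81.5 and 41.6 CPM in PX-478 1, 2 and 3, against 102, 63.5, 74.4 and 95.8 CPM in Saline 1, 2, 3 and 4, a log2 difference of -0.83 (SE 0.43, 95% interval -1.79 to 0.13, edgeR adjusted p = 0.746). Saline 1 was highest and PX-478 1 lowest for both copies. Cyp4a12b made up 27.7% to 34.1% of the pair in PX-478 livers and 23.9% to 34.4% in saline livers. Added into 1 row, the pair differed by -1.01 on the log2 scale (SE 0.43, edgeR adjusted p = 0.694). Without PX-478 2, the library that stood apart, the log2 fold change of Cyp4a12b was -1.49, and without PX-478 1 it was -0.44. Neither passed after adjustment in these fits. Log2 fold changes at or below -1 were found for 2.3% of all genes, and those at or above 1 for 2.94%. Of the members, Cyp4a12a was in the first set and Cyp4a10, Cyp4a14 and Cyp4a31 in the second.

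**Figure D3:**
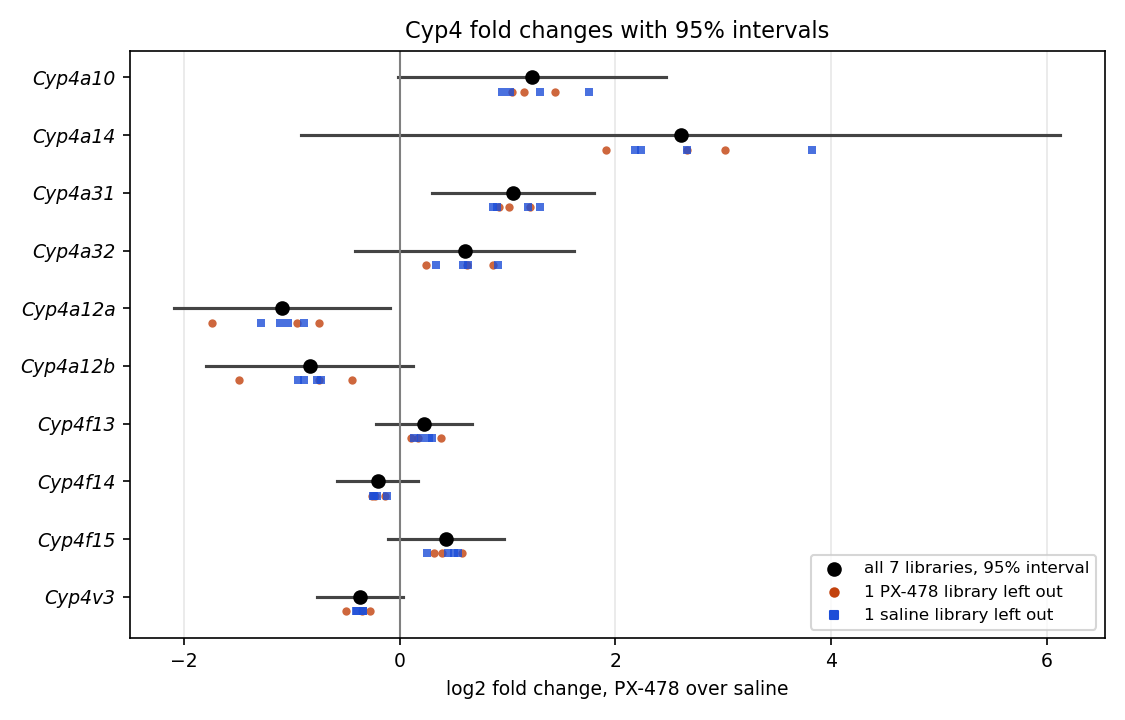
Fitted log2 difference, PX-478 minus saline, of each Cyp4 gene (black point, all 7 libraries) with its 95% interval (line), and below it the values with 1 PX-478 library (circles) or 1 saline library (squares) left out. The interval of Cyp4a14 runs from -0.92 to 6.13, only those of Cyp4a31 and Cyp4a12a do not reach 0, and no left-out library turned the sign of a member.

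The 2 sets of Cyp4a genes stood in opposite order across the libraries. The summed level of Cyp4a10, Cyp4a14, Cyp4a31 and Cyp4a32 was 438, 242 and 369 CPM in PX-478 1, 2 and 3, against 92.5, 285, 72.0 and 174 CPM in Saline 1, 2, 3 and 4. The summed level of Cyp4a12a and Cyp4a12b was 66.5, 257 and 122 CPM in PX-478 1, 2 and 3, against 400.1, 184, 312 and 300.1 CPM in Saline 1, 2, 3 and 4. Ranked by either sum the 7 libraries gave the same order in reverse, except that Saline 1 and Saline 3 changed places. The ratio of the first sum to the second was 6.59, 0.941 and 3.03 in PX-478 1, 2 and 3, against 0.231, 1.54, 0.231 and 0.580 in Saline 1, 2, 3 and 4. The groups overlapped in this ratio through PX-478 2 and Saline 2.

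Over all 6 Cyp4a genes the summed level differed far less. It was 504, 498 and 491 CPM in PX-478 1, 2 and 3, against 493, 469, 384 and 474 CPM in Saline 1, 2, 3 and 4. The highest saline library lay between PX-478 3 and PX-478 2. The libraries thus differed in which Cyp4a genes supplied the reads more than in their total. The sums were formed after these values were seen and were not tested.

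**Figure D4:**
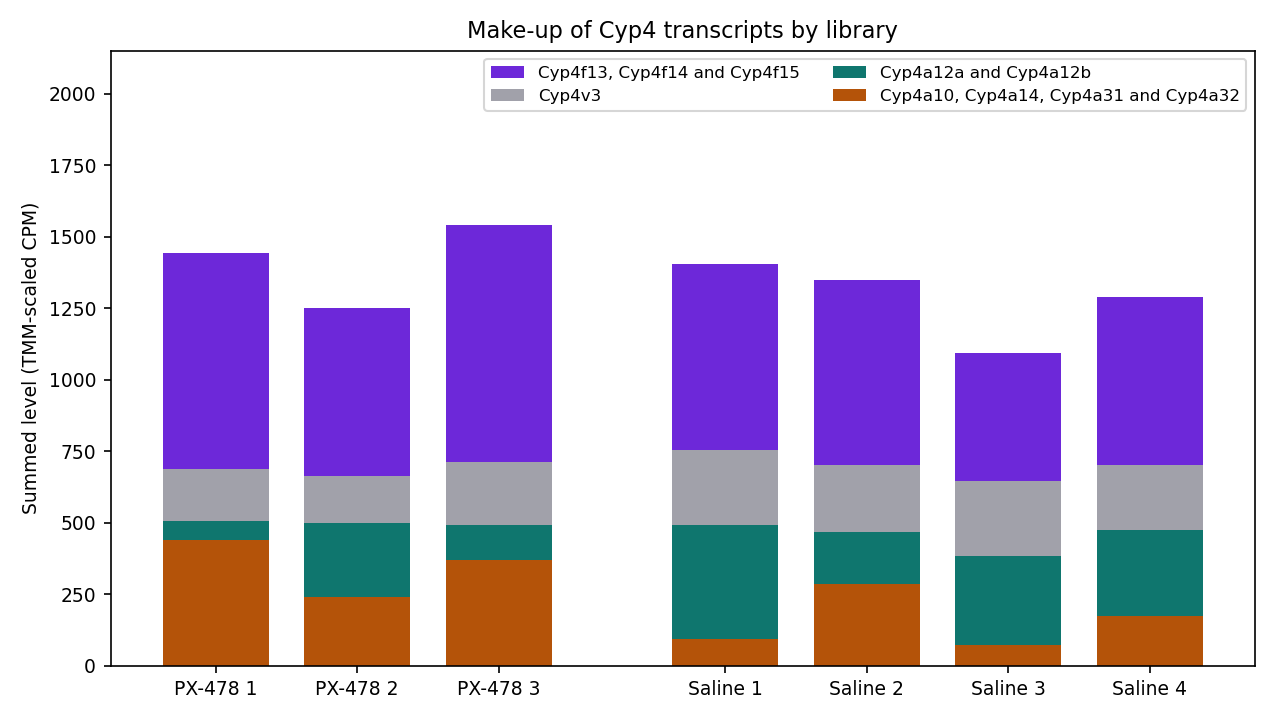
Summed level of the Cyp4 genes in each library, in TMM-scaled CPM, stacked by set, with PX-478 libraries on the left and saline libraries on the right. The lower blocks, Cyp4a10, Cyp4a14, Cyp4a31 and Cyp4a32 (72.0 to 438 CPM) and Cyp4a12a with Cyp4a12b (66.5 to 400.1 CPM), vary in opposite order, while their total lies between 384 and 504 CPM.

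The Cyp4f genes had a higher summed level than either set of Cyp4a genes in every library. Cyp4f15 stood at 537, 402 and 587 CPM in PX-478 1, 2 and 3, against 459, 430, 228 and 390 CPM in Saline 1, 2, 3 and 4. PX-478 1 and 3 lay above all saline libraries and PX-478 2 lay within their range. The log2 difference was 0.43 (SE 0.25, 95% interval -0.11 to 0.97, edgeR adjusted p = 0.766), and 0.25 without Saline 3, the lowest library.

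Cyp4f13 stood at 146, 104 and 158 CPM in PX-478 1, 2 and 3, against 110, 129, 134 and 93.5 CPM in Saline 1, 2, 3 and 4 (log2 fold change 0.22, SE 0.21, 95% interval -0.22 to 0.67, adjusted p = 0.859). Cyp4f14, which in mice hydroxylates leukotriene B4 and vitamin E, was among the steadiest members, at 71.5, 83.7 and 80.9 CPM in PX-478 1, 2 and 3, against 83.1, 88.8, 84.2 and 106 CPM in Saline 1, 2, 3 and 4. The log2 difference was -0.20 (SE 0.17, 95% interval -0.58 to 0.17, edgeR adjusted p = 0.850). Both genes had overlapping groups, and the within-group SD of Cyp4f14 on the log2 scale lay at percentile 10 of all genes in PX-478 livers and 12.1 in saline livers.

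Cyp4v3, a hydroxylase of polyunsaturated fatty acids, stood at 185, 164 and 222 CPM in PX-478 1, 2 and 3, against 260, 233, 262 and 226 CPM in Saline 1, 2, 3 and 4. Every PX-478 library lay below every saline library, as for 4.29% of all genes, and PX-478 3 and Saline 4 were close, at 222 and 226 CPM. The means were 190.2 ± 29.5 CPM in PX-478 livers (SD, n = 3) and 246 ± 18.3 CPM in saline livers (SD, n = 4), a log2 difference of -0.37 (SE 0.19, 95% interval -0.77 to 0.03, edgeR adjusted p = 0.735). When libraries were scaled by their size alone it was -0.24, with the median of all genes at 0.15.

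Relative to transcript length, the order of the genes differed between the groups. In PX-478 livers the mean level per kilobase was 235 ± 44.1 CPM for Cyp4f15, followed by 86.4 ± 25.6 for Cyp4a10, 77.7 ± 16.4 for Cyp4f13, 61.4 ± 26.3 for Cyp4a32, 49.96 ± 7.74 for Cyp4v3 and 41.8 ± 27.2 for Cyp4a12a. Cyp4f14 at 35.4 ± 2.88, Cyp4a14 at 24.7 ± 17.6, Cyp4a12b at 19.7 ± 13.3 and Cyp4a31 at 4.56 ± 0.960 CPM per kilobase came last (SD, n = 3). In saline livers Cyp4f15 also came first, at 174 ± 47.5 CPM per kilobase, followed by Cyp4a12a at 88.8 ± 30.5, Cyp4f13 at 66.6 ± 10.5, Cyp4v3 at 64.5 ± 4.82, Cyp4f14 at 40.8 ± 4.83, Cyp4a32 at 40.5 ± 19.8, Cyp4a10 at 37.0 ± 25.98 and Cyp4a12b at 35.1 ± 7.54. Cyp4a14 at 4.12 ± 5.17 and Cyp4a31 at 2.21 ± 0.986 CPM per kilobase were lowest (SD, n = 4). Among neighbours in these orders, the ranges of mean ± SD were separate only for Cyp4f15 and the gene after it in both groups, for Cyp4a12b and Cyp4a31 in PX-478 livers, and for Cyp4v3 and Cyp4f14 and for Cyp4a12b and Cyp4a14 in saline livers. The annotated Cyp4a32 transcript of 1530 bases is almost all coding. How this affects its level per kilobase beside genes with annotated untranslated ends was not tested.

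The rows most like Cyp4a14 over the 7 libraries, by the root mean square difference of centred log2 CPM, were Nipal1, Acot3, Cyp2a4 and Lmtk3, with differences of 1.21, 1.36, 1.57 and 1.68 where Cyp4a14 itself spanned 9.05. Acot3 is a peroxisomal acyl-CoA thioesterase with close copies, and Cyp2a4 a steroid hydroxylase with a close copy in Cyp2a5. Nipal1, Acot3 and Lmtk3 had a rounded mean count of 0 in Saline 1 and Saline 3. Lmtk3 was low throughout, with its highest value, 2.42 CPM, in PX-478 2. Cyp2a4 stood at 233, 143 and 105 CPM in PX-478 1, 2 and 3, against 10.8, 72.1, 23.1 and 41.3 CPM in Saline 1, 2, 3 and 4.

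Most like Cyp4a12a were Mup20, Ces2c, Tmx1 and C9, with differences of 0.24, 0.26, 0.30 and 0.32 where Cyp4a12a spanned 2.63. Mup20 encodes darcin, a male urinary pheromone protein, Ces2c a carboxylesterase and C9 the pore-forming component of complement. Mup20 and Ces2c belong to families of close copies. C9 stood at 73.7, 207 and 128 CPM in PX-478 1, 2 and 3, against 237, 124, 268 and 222 CPM in Saline 1, 2, 3 and 4, with PX-478 2 and Saline 2 placed as for Cyp4a12a.

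Other PPARα targets did not share one direction. Of 38 tested, 21 were higher in value in PX-478 and 17 lower, none passed in edgeR, and the median log2 fold change was 0.02, where over all genes 6807 were higher and 6886 lower with a median of -0.0035. Unadjusted p lay under 0.05 for 4 on the higher side and 3 on the lower side, where 3.48% of all genes lay on each. Ehhadh, the peroxisomal bifunctional enzyme that takes part in breaking down dicarboxylic acids, stood at 53.1, 51.4 and 40.6 CPM in PX-478 1, 2 and 3, against 29.0, 30.8, 30.4 and 31.8 CPM in Saline 1, 2, 3 and 4. All PX-478 libraries lay above all saline libraries, as for 4.3% of all genes, and the log2 difference was 0.66 (SE 0.17, edgeR adjusted p = 0.381). Acaa1b, a peroxisomal thiolase, differed by 0.66 on the log2 scale (SE 0.28) and Acot4, a peroxisomal thioesterase for dicarboxylic acyl-CoA, by 1.27 (SE 0.48). Cd36, the fatty acid transporter, stood at 15.7, 29.1 and 12.6 CPM in PX-478 1, 2 and 3, against 26.2, 50.5, 37.4 and 34.7 CPM in Saline 1, 2, 3 and 4 (log2 fold change -0.96, SE 0.30, adjusted p = 0.541).

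Of 16 genes around omega-oxidation, 9 were higher and 7 lower in value, none passed in edgeR, and the median was 0.02. At an unadjusted p under 0.05 there were 3 on the higher side and 2 on the lower side, where 3.48% of all genes lay on each. Por, the reductase that passes electrons to P450 enzymes, stood at 333, 258 and 402 CPM in PX-478 1, 2 and 3, against 75.8, 143, 172 and 294 CPM in Saline 1, 2, 3 and 4. Only Saline 4 lay within the PX-478 range (log2 fold change 0.95, SE 0.37, adjusted p = 0.657 in edgeR). Scp2, which carries sterols and holds a peroxisomal thiolase, differed by -0.55 on the log2 scale (SE 0.20, edgeR adjusted p = 0.602), with 1407 to 1558 CPM in PX-478 livers and 1963 to 2520 CPM in saline livers.

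Of 16 tested regulators of Cyp4 genes, 8 were higher and 8 lower in value, none passed even at an unadjusted p under 0.05, and the median was 0.0045. Those with the smallest p were the xenobiotic receptors Nr1i2, with a log2 difference of 0.48 (SE 0.26), and Nr1i3 with 0.76 (SE 0.46), the growth hormone receptor Ghr at -0.36 (SE 0.23) and Hnf4a at -0.29 (SE 0.24). Ppara itself, the receptor, was named after its values were seen and stood at 187, 112 and 209 CPM in PX-478 1, 2 and 3, against 168, 175, 84.9 and 183 CPM in Saline 1, 2, 3 and 4. Its groups overlapped widely.

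Of 12 genes of eicosanoid and vitamin K and E metabolism, 9 were higher and 3 lower in value, none passed in edgeR or had an unadjusted p under 0.05, and the median was 0.07. Ltc4s, the leukotriene C4 synthase, differed by 1.26 on the log2 scale (SE 0.62) and Vkorc1, the vitamin K recycling enzyme, by -0.34 (SE 0.21). Cyp2j5, an arachidonic acid epoxygenase, stood at -0.28 (SE 0.17) and Vkorc1l1 at -0.52 (SE 0.37).

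Of other Cyp4 genes, 5 were tested, and none passed in edgeR or had an unadjusted p under 0.05. Cyp4b1 averaged 13.4 ± 2.54 CPM in PX-478 livers and 9.92 ± 4.11 CPM in saline livers, and Cyp4f16 4.57 ± 1.53 and 3.14 ± 1.06 CPM in the same order of groups. Cyp4f17 averaged 11.8 ± 1.00 CPM in PX-478 livers and 13.8 ± 4.04 CPM in saline livers. Cyp4f18, expressed in myeloid cells in mice, averaged 3.08 ± 2.55 CPM in PX-478 livers and 3.79 ± 1.46 CPM in saline livers (SD, n = 3 and n = 4). The annotated pseudogene Cyp4f41-ps lay at 0 to 1.04 CPM in PX-478 livers and 0.0867 to 1.26 CPM in saline livers.

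**Figure D5:**
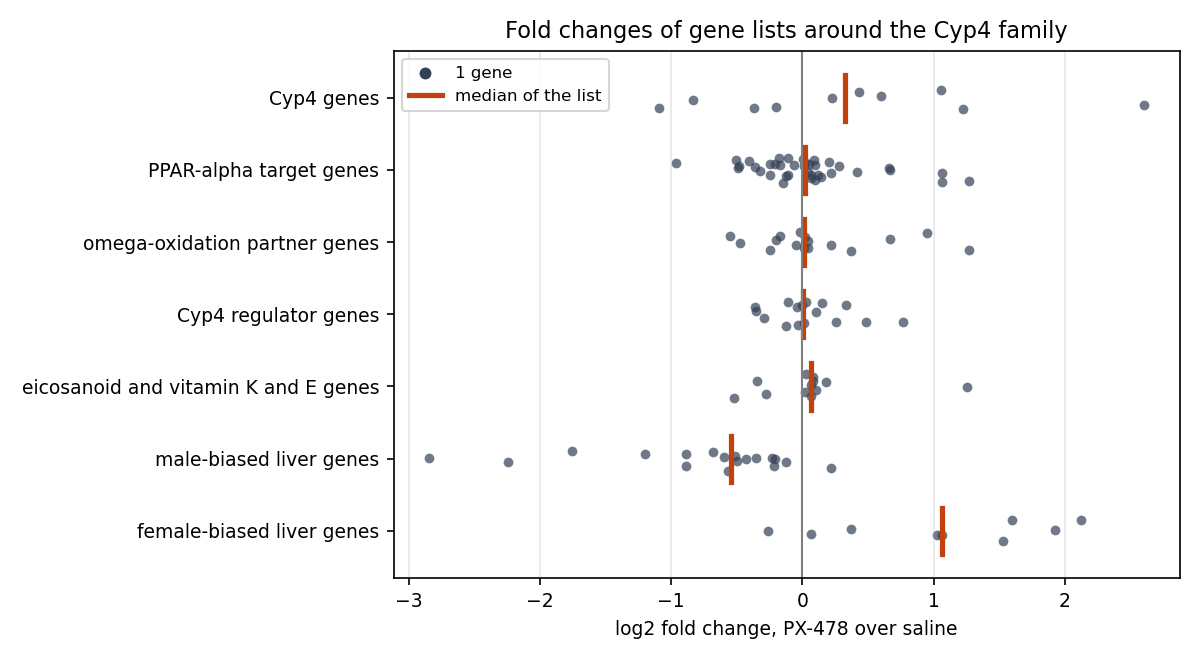
Fitted log2 difference, PX-478 minus saline, for the tested genes of 7 lists, 1 point a gene, with the median of each list as a bar. The Cyp4 genes spread from -1.09 to 2.60, the medians of the PPARα, omega-oxidation and regulator lists lie within 0.02 of 0, and that of the male-biased list is -0.54.

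Markers of other cell types were set beside these values. All 10 macrophage and Kupffer cell markers were lower in value in PX-478, against 6886 of all 13693 genes, and none passed in edgeR. Of the 10, 4 had an unadjusted p under 0.05 on the lower side, as had 3.48% of all genes. Lyz2 had the smallest p, with a log2 difference of -1.12 (SE 0.22, edgeR adjusted p = 0.179). Cd68 followed at -0.91 (SE 0.20, edgeR adjusted p = 0.264). For 4 of the 10, every PX-478 library lay below every saline library, as for 4.29% of all genes. Others hardly differed or varied widely, such as Csf1r at -0.01 (SE 0.21) and Marco at -0.19 (SE 1.02) on the log2 scale. The 10 markers summed to 322 to 432 CPM in PX-478 livers and 335 to 668 CPM in saline livers. Of 6 sinusoidal endothelial markers 5 were higher in value, against 6807 of all 13693 genes, and none passed in edgeR. The 6 summed to 149 to 175 CPM in PX-478 livers and 101 to 152 CPM in saline livers. Kdr, at 0.98 (SE 0.36), and Oit3, at 0.57 (SE 0.26), had an unadjusted p under 0.05, as had 3.48% of all genes on the higher side. Pecam1 was lower, at -0.47 (SE 0.22), with every PX-478 library below every saline library, as for 4.29% of all genes. The 6 stellate cell markers summed to 125 to 235 CPM in PX-478 livers and 130 to 152 CPM in saline livers, and the 5 cholangiocyte markers to 78.6 to 132 and 74.9 to 109.7 CPM in the same order of groups. Of the kidney tubule markers Lrp2 alone was analysed, at 0 to 1.51 CPM in PX-478 livers and 0.434 to 1.498 CPM in saline livers. The analysed neutrophil markers, 3 of 6, summed to 2.30 to 7.41 CPM in PX-478 livers and 4.94 to 6.77 CPM in saline livers. The analysed adipocyte markers, 2 of 6, summed to 9.20 to 26.4 CPM in PX-478 livers and 14.7 to 21.6 CPM in saline livers. Ly6g, Mpo, Camp, Adipoq, Plin1, Lep, Retn, Umod, Slc34a1, Kap and Slc12a1 were not among the 14889 genes by these symbols, so their levels cannot be given. The part of these cell types in the Cyp4 values was not tested.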

How the data were processed

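Liver total RNA of 7 mice was sequenced with Illumina libraries, per the labels' protocols. Sample titles give the group and replicate number. Nothing states how the mice were caged or handled, and p-values therefore reflect the spread among these samples, which may be partly technical.

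Deposited by the authors were whole-number counts of reads for each gene, listed by Entrez Gene ID and symbol. The submitters' processing notes name featureCounts, edgeR and the build mm10. The aligner, versions and strand setting are not given in the sources used here, so reads of overlapping genes on opposite strands cannot be told apart. All 14889 genes exceeded 0.5 CPM in at least 2 of the 14 count columns. Another 7 per-sample average columns and the authors' own test were not used.

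Each sample has 2 count columns. They differed by less than the sampling noise (chi-square per gene 0.291 to 0.765, over genes above 20 reads, against 49.1 to 145 between libraries of a group), so their rounded mean was used and counted as 1 sample.

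Genes were filtered with filterByExpr, scaled by TMM and tested with edgeR 4.0.16 (quasi-likelihood, robust, no covariates), with Benjamini-Hochberg adjustment over 13693 genes. Standard errors were obtained by dividing the size of each log2 change by the root of its F statistic. The test was checked on simulated data. Log2 CPM used a prior count of 2. Alternatives used limma 3.58.1 and DESeq2 1.42.0. Transcripts and coordinates are from GENCODE on mm10; length is that of the transcript with the longest coding sequence.

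The members, gene lists and tests were chosen with earlier results of these data known. Named genes are all members, the 4 smallest p-values of each list (2 for cell type markers), the 4 rows most like Cyp4a14 and Cyp4a12a, and Apoe. Lists are described by counts and medians without a test.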

Additional observations from a re-analysis of the deposited data

Results flagged for a closer look

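In 59 genes looked at, 3 had a saline library far from the other saline libraries by the ratio of gap to range, and none of them was a Cyp4 member. Such a gap is reached by chance in about 1 in 20 groups, so about as many genes would be flagged by chance alone. Ugt2b38, a male-biased glucuronosyltransferase with close copies, stood at 5.03 CPM in Saline 2, against 25.1 to 27.7 CPM in the other saline livers. Kdr, an endothelial receptor, stood at 3.57 CPM in Saline 3, against 9.11 to 9.40 CPM in the other saline livers. Spp1, which encodes osteopontin, stood at 86.5 CPM in Saline 1, against 62.8 to 66.0 CPM in the other saline livers.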

How the results depend on the processing

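In 20 alternative settings no Cyp4 member passed the adjusted threshold, and in all 197 refitted member values the sign was that of the value reported. Left-out libraries moved log2 fold changes between 0.95 and 1.76 for Cyp4a10, 1.92 and 3.82 for Cyp4a14, 0.86 and 1.30 for Cyp4a31, 0.24 and 0.91 for Cyp4a32, -1.74 and -0.75 for Cyp4a12a, and -1.49 and -0.44 for Cyp4a12b. For Cyp4f13 the range was 0.10 (without PX-478 3) to 0.38 (without PX-478 2), for Cyp4f14 -0.25 to -0.12 (without Saline 4), for Cyp4f15 0.25 to 0.58, and for Cyp4v3 -0.50 to -0.27. In limma-voom the value of Cyp4a14 was 4.44. Genes called over the whole table were 0 higher and 1 lower. With libraries scaled by size alone 4 were higher, with DESeq2 46 were higher and 36 lower, with limma-voom 0 were lower, and leaving out 1 library gave 0 to 4 higher (4 without PX-478 2, 2 without PX-478 3 and 4 without Saline 4) and 1 to 3 lower (3 without PX-478 3). The cause of these differences was not tested. Replicate numbers were not treated as pairs. Deviations of same-numbered libraries correlated at -0.0211, -0.0742 and -0.0017, and none of these libraries correlated best with its own number. With so few libraries, each centred on its group mean, this cannot show whether mice were paired. The fit with a replicate block, which leaves out Saline 4, called 1 gene higher and 2 lower. With libraries scaled by size alone the median of all genes was 0.15 and Cyp4f14 stood at -0.05. Depth limits Cyp4a14 in Saline 1, where it rests on 1 read.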

Other observations

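Lists of genes with sex-biased expression in mouse liver were also described. The sex of the mice is not reported here, and its part in these values was not tested. Of 18 male-biased genes tested, 17 were lower in value in PX-478, against 6886 of all 13693 genes, and the median log2 difference was -0.54. None passed in edgeR, and 3 had an unadjusted p under 0.05 on the lower side, as had 3.48% of all genes. Elovl3, a fatty acid elongase, stood at 12.1, 27.4 and 14.5 CPM in PX-478 1, 2 and 3, against 286, 93.8, 101 and 34.8 CPM in Saline 1, 2, 3 and 4 (log2 difference -2.84, SE 0.77, edgeR adjusted p = 0.546). For Elovl3 every PX-478 library lay below every saline library, as for 4.29% of all genes. Cyp2u1, a fatty acid hydroxylase, differed by -1.20 on the log2 scale (SE 0.48, edgeR adjusted p = 0.662) and Egfr, the epidermal growth factor receptor, by -0.68 (SE 0.29, edgeR adjusted p = 0.683), both with overlapping groups.

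Of 9 female-biased genes tested, 8 were higher in value in PX-478, against 6807 of all 13693 genes, and the median was 1.06. None passed in edgeR, and 3 had an unadjusted p under 0.05 on the higher side, as had 3.48% of all genes. The analysed genes of that list summed to 211 to 504 CPM in PX-478 livers and 61.2 to 203 CPM in saline livers. These ranges lay close, and Cyp2a4 and Slco1a4 made up much of the sum, at 233 and 179 CPM in PX-478 1. Taken singly, 3 of the 9 genes had every PX-478 library above every saline library, as had 4.3% of all genes. Abcd2, a peroxisomal fatty acid transporter, stood at 8.36, 5.90 and 3.39 CPM in PX-478 1, 2 and 3, against 0.781, 3.04, 2.25 and 1.75 CPM in Saline 1, 2, 3 and 4 (log2 fold change 1.60, SE 0.47, adjusted p = 0.508 in edgeR).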
